A study of Mus musculus with 16 samples.

Results

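The genes described here are 41 genes of the cell cycle and of DNA replication, grouped as 18 genes of S phase, 22 genes of mitosis and the G1 cyclin gene Ccnd1. Each was read from the probe set that carried its symbol alone, and where a gene had several such probe sets from the one with the highest mean. By this rule 39 of the 41 were measured among 22180 genes in all, namely 17 S phase genes, 21 mitotic genes and Ccnd1. Ccne2 was not measured, since its probe set carried several symbols, and Ccnb1 was not analysed here.

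The cells were GM-DC, dendritic cells grown for 10 days from the bone marrow of male C57/B6 mice in medium with 20 ng/ml of the growth factor GM-CSF. They were studied for 24 h in 4 groups of 4 arrays, which were IMQ with PA, IMQ alone, PA alone and mock. IMQ is read here as imiquimod, which activates the endosomal receptor TLR7, and PA as palmitic acid, a saturated fatty acid. PA was given at 0.5 mM, bound to albumin at 6:1. The dose of IMQ stands as 3 uM in the series' design and as 3 ug/ml in the treatment protocol, and the labels do not say whether mock cells received albumin. No mouse age is given, and the labels number the replicates of each group as biological without saying whether they came from separate mice or cultures, so a p-value here reflects the array-to-array spread, which may be technical. Values are on the log2 scale, and a difference of 1 is a 2-fold change.

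A dividing cell copies its DNA once in S phase and separates the copies in mitosis. E2F factors switch on the S phase genes as cells pass from G1, and a later wave of mitotic genes follows under B-MYB, FOXM1 and the MuvB complex. Cells that leave the cycle repress these genes through RB-family proteins, repressive E2Fs and the DREAM complex. GM-CSF drives the growth of bone marrow precursors, and cultures of this kind hold dividing cells beside differentiated ones. Activation by Toll-like receptor agonists is known to go with an end of proliferation in dendritic cells.

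The arrays carried the marks of their treatments. IMQ raised Il6, Tnf, Il12b, Il1b and Nos2 by 2.41 to 5.03, and PA alone raised Angptl4, Cpt1a and Plin2 by 1.03 to 2.53. The markers listed for dendritic cells ranged widely on average in mock cells, from 12.32 for H2-Ab1 and 11.09 for Itgax to 5.47 for Zbtb46 and 4.63 for Xcr1. Those listed for macrophages ranged from 12.55 for Cd68 to 6.69 for Marco, with Csf1r at 11.77 and Adgre1 at 10.09. Of 7 lymphocyte markers 6, and of 8 mast cell and basophil markers 7, lay in all groups below 4.932, the level under which the means of 95% of 1447 sensory receptor genes lie. Of 11 neutrophil markers 4, of 6 plasmacytoid dendritic cell markers 3 and of 2 erythroid markers 1 lay below that level in all groups. The level serves below as the mark of a dim reading. Where 1 of the group means compared lies below it, the change is written as at least that large, and where both do its size cannot be read. Among the arrays given no IMQ, 5 stood apart with Il6 above that level, namely mock replicates 1 to 3 and PA replicates 3 and 4. Results that rest on them are given with and without them, and without them 1 mock array is left, taken to vary like the other groups.

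IMQ lowered nearly the whole set. By limma 36 of the 39 genes were lower and 1 was higher in IMQ than in mock cells, against 17.9% lower and 17% higher among all genes tested. The median change of the 39 was -0.91 and that of all genes 0.015. All 21 mitotic genes fell, by a median of 1.38, and 14 of the 17 S phase genes fell, with a class median of -0.69. Values of the IMQ and mock arrays did not overlap for 38 of the 39. The share of all genes without overlap was not computed, so that count describes these genes alone. The arrays read RNA from whole cultures, so fewer dividing cells and less of these RNAs per cell cannot be told apart. All 37 calls held in each of the 24 alternatives that set no size and fitted the gene, including the one without the 5 arrays with Il6 signal.

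**Figure D1:**
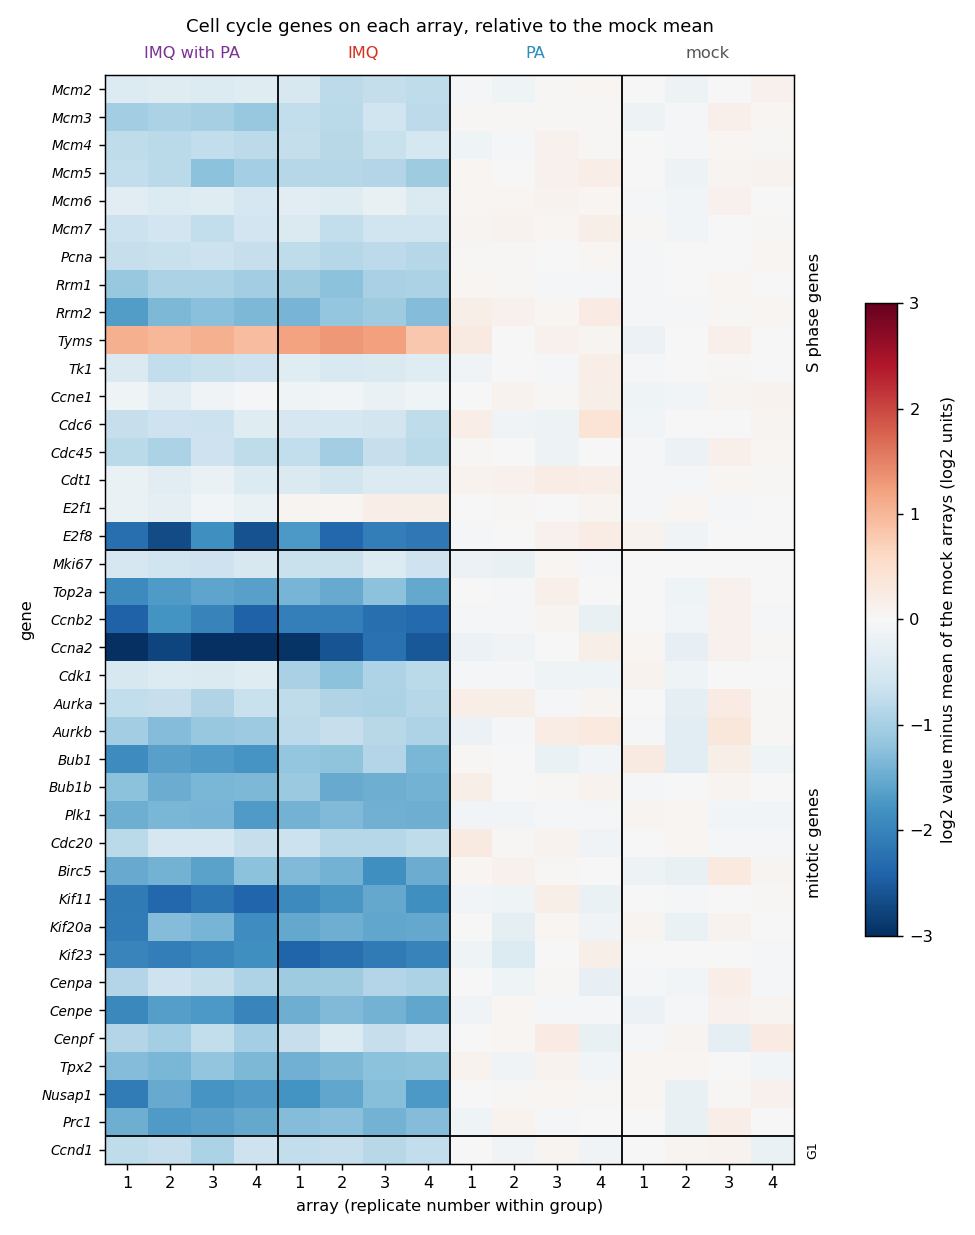
Colour gives the log2 value of each of the 39 genes (rows, S phase above, then mitotic, then Ccnd1) on each of the 16 arrays (columns), minus the mean of the mock arrays. The 8 arrays given IMQ are blue for nearly all genes, deepest among the mitotic genes, with Tyms red, and the PA and mock arrays are near white.

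Since the genes moved together, the sequence upstream of them was searched for the motifs these programmes are known for. They are CHR (TTTGAA), bound by the MuvB core, the CCAAT box (CCAAT), bound by NF-Y, and E2F sites (TTTCCCGC, TTTCGCGC, TTTGCCGC or TTTGGCGC), which may overlap one another. Both strands of the 250 bases before each RefSeq start (GRCm38.p6) were read for the 33 measured genes that matched by symbol. CHR letters stood upstream of 41.2% of 17 mitotic genes, 18.8% of 16 S phase genes and 16.1% of 16990 genes of the array. The CCAAT box stood upstream of 88.2% of the mitotic, 62.5% of the S phase and 38.7% of all these genes, and E2F letters upstream of 5.88% of the mitotic, 25.0% of the S phase and 2.7% of all. A match in letters is a description and not a site, and no match says only that these letters are not in this window.

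The last 120 bases before the start are shown for a few genes that carry the results described below, 5′ to 3′ on the gene's strand, with matched letters of any of the motifs, on either strand, in capitals. The first pair, the cyclin-dependent kinase gene Cdk1 and the spindle motor gene Kif11, both held CHR and CCAAT letters and moved in opposite directions when PA was added to IMQ. Ccnb2 and Top2a are mitotic genes with repeated CCAAT boxes, and Mcm6, Mcm3 and E2f8 are S phase genes.
Cdk1 (chr10:69352913-69353032, minus strand): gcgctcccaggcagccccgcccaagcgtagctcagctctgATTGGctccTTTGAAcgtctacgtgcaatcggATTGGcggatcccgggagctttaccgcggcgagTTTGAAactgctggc
Kif11 (chr19:37376262-37376381, plus strand): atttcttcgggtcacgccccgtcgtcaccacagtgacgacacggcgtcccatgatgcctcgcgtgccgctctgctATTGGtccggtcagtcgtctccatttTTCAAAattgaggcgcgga
Ccnb2 (chr9:70421555-70421674, minus strand): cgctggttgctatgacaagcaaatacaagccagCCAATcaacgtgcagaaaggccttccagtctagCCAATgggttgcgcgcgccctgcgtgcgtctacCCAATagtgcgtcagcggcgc
Top2a (chr11:99024190-99024309, minus strand): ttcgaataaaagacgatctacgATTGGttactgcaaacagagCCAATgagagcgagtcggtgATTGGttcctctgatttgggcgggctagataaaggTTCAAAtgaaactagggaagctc
Mcm6 (chr1:128359706-128359825, minus strand): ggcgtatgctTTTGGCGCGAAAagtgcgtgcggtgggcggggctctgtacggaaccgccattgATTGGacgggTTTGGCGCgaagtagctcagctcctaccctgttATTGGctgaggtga
Mcm3 (chr1:20820313-20820432, minus strand): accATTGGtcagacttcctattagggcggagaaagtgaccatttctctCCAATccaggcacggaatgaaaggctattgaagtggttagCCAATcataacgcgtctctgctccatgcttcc
E2f8 (chr7:48881597-48881716, minus strand): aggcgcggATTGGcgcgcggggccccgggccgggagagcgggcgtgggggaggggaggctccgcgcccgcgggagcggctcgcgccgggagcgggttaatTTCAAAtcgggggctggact

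The change with IMQ is given here by class for genes with and without each motif. The 7 mitotic genes with CHR letters changed by a median of -1.32 and the 10 without by -1.40. The 3 S phase genes with CHR letters (Cdc45, E2f8 and Mcm2) changed by a median of -0.83 (-2.08 to -0.69) and the 13 without by -0.59 (-1.24 to 1.13). The 15 mitotic genes with a CCAAT box had a median of -1.32, and the 2 without, Birc5 and Nusap1, one of -1.55. The size for Birc5 cannot be read, since both its means are dim, and Birc5 is also among the 10 without CHR letters. Among S phase genes the 10 with a CCAAT box had a median of -0.83, and the 6 without, which include Tyms, E2f1 and Ccne1, had one of -0.27. The 4 S phase genes with E2F letters (Cdc6, Mcm5, Mcm6 and Mcm7) had a median of -0.59, and the 12 without had one of -0.71. These medians are descriptions over few genes, and the ranges with and without a motif overlapped.

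Of the S phase genes, the 6 subunits of the MCM helicase, which unwinds DNA at the replication fork, all fell with IMQ by 0.33 to 0.91. Mcm5 fell furthest, with 5.72, 5.72, 5.69 and 5.50 in IMQ cells against 6.55, 6.41, 6.65 and 6.67 in mock cells. Its change was -0.91 ± 0.10 (SE of the fit, limma adjusted p = 1.39e-06), and every IMQ array lay below every mock array. Mcm6 moved least, with 6.95, 6.91, 7.04 and 6.84 in IMQ cells against 7.24, 7.19, 7.40 and 7.25 in mock cells, a change of -0.33 ± 0.06 (adjusted p = 0.000247). Even there the groups did not overlap. Between them lay Mcm3 (-0.73 ± 0.07), Mcm2 (-0.69 ± 0.07), Mcm4 (-0.69 ± 0.07) and Mcm7 (-0.60 ± 0.06).

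The factors that load and start the helicase, and the sliding clamp, fell as well. Cdc45, which joins the MCM ring to make the active helicase, read 5.34, 5.04, 5.40 and 5.28 in IMQ cells against 6.06, 5.92, 6.24 and 6.16 in mock cells (-0.83 ± 0.09, adjusted p = 1.43e-06). Cdt1, which loads the ring at origins, read 6.87, 6.76, 6.89 and 6.89 in IMQ cells against 7.27, 7.27, 7.36 and 7.34 in mock cells (-0.46 ± 0.05, adjusted p = 3.52e-06). For both genes the IMQ arrays were all lower than the mock arrays. The clamp gene Pcna fell by 0.82 ± 0.04, with an SD of 0.04 in both groups. Cdc6, a partner of Cdt1 at origins, fell by at least 0.59 ± 0.11, with an IMQ mean of 4.79.

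Among genes that supply nucleotides, both subunits of ribonucleotide reductase fell and thymidylate synthase rose. Rrm2, the small subunit, whose level follows S phase, read 4.79, 5.04, 5.12 and 4.88 in IMQ cells against 6.14, 6.15, 6.22 and 6.26 in mock cells (-1.24 ± 0.09, adjusted p = 1.05e-08). A further probe set of Rrm2, with a mean of 2.636 over all arrays, was not used. Over the alternatives that set no size the change of Rrm2 with IMQ ran from -1.31 to -0.85. Rrm1, the large subunit, fell by 1.06 ± 0.06. Thymidine kinase, Tk1, which recycles thymidine, read 5.81, 5.71, 5.74 and 5.81 in IMQ cells against 6.14, 6.16, 6.20 and 6.16 in mock cells, a smaller fall (-0.40 ± 0.07, adjusted p = 0.000225). No array of IMQ cells reached the mock arrays for any of these genes.

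Tyms encodes thymidylate synthase, which makes the thymidine nucleotide from its uridine precursor, and was the single gene of the 39 called higher with IMQ. It read 7.80, 7.90, 7.82 and 7.40 in IMQ cells against 6.43, 6.59, 6.75 and 6.61 in mock cells, and 7.66, 7.60, 7.67 and 7.53 in cells given IMQ with PA. Every array given IMQ lay above every array without it. The change with IMQ was 1.13 ± 0.10, a 2.19-fold rise (adjusted p = 8.33e-08), and that of IMQ with PA against PA was 0.89 ± 0.10 (adjusted p = 1.34e-06). RefSeq lists a transcribed pseudogene, Tyms-ps, and another probe set of the array carries both symbols. Whether the probe set used here also reads that copy was not tested, so the gene's rise is uncertain.

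The regulators of the G1 to S step split. E2f8, an E2F family repressor that is itself a target of E2F, fell furthest of the S phase genes, with 5.26, 4.62, 4.91 and 4.83 in IMQ cells against 7.09, 6.87, 6.99 and 6.98 in mock cells. With an IMQ mean of 4.90 this is a fall of at least 2.08 ± 0.16 (adjusted p = 2.80e-08), and the groups lay far apart. E2f1, the activator that opens the S phase wave, read 7.42, 7.41, 7.53 and 7.51 in IMQ cells against 7.31, 7.39, 7.30 and 7.36 in mock cells. These values did not overlap, but the difference of 0.13 ± 0.05 missed the threshold (adjusted p = 0.0567). It passed in 5 of the alternatives, with quantile normalization repeated (0.17, adjusted p = 0.0164), with dim genes left out, and without mock replicate 2, IMQ replicate 2 or IMQ with PA replicate 3. Ccne1, cyclin E1, the partner of CDK2 at entry to S phase, differed by -0.14 ± 0.07 (95% confidence interval -0.29 to 0.02, adjusted p = 0.169), and its groups overlapped.

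All 6 mitotic cyclins and kinases fell, and Ccna2 had the largest fitted fall of the 39 genes. Ccna2, cyclin A2, which serves both S phase and entry to mitosis, read 4.21, 4.57, 4.90 and 4.60 in IMQ cells against 7.22, 6.91, 7.29 and 7.19 in mock cells. All 4 IMQ arrays lay below the level of sensory receptor genes, so the fall of 2.58 ± 0.15 (adjusted p = 6.00e-10) is a lower bound. Ccnb2, a B-type cyclin, fell by 2.17 ± 0.12, and Plk1, a kinase of mitotic entry and spindle assembly, by 1.41 ± 0.07. Cdk1, the kinase that drives mitosis, fell to 5.86, 5.60, 5.90 and 6.02 in IMQ cells, against 6.94, 6.71, 6.82 and 6.84 in mock cells (-0.98 ± 0.07, adjusted p = 2.01e-08).

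The Aurora kinases moved least in that group. Aurkb, which corrects the attachment of chromosomes to the spindle, read 6.12, 6.20, 6.07 and 5.98 in IMQ cells against 6.86, 6.55, 7.25 and 6.94 in mock cells. It changed by -0.81 ± 0.13 (adjusted p = 8.36e-05), and its mock arrays varied more than its IMQ arrays (SD 0.29 against 0.09) without meeting them. Aurka, which acts at the spindle poles, fell by 0.86 ± 0.09.

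Genes of the spindle checkpoint and of mitotic exit fell together. Bub1b, a checkpoint protein that holds back the anaphase-promoting complex, read 5.42, 5.03, 5.07 and 5.13 in IMQ cells against 6.49, 6.52, 6.63 and 6.53 in mock cells (-1.38 ± 0.08, adjusted p = 7.74e-10). Cdc20, which activates that complex, read 5.12, 4.91, 4.92 and 5.0 in IMQ cells against 5.79, 5.83, 5.74 and 5.71 in mock cells (-0.78 ± 0.08, adjusted p = 1.11e-06). Neither gene had an IMQ array within the mock range. Bub1, a checkpoint kinase, fell by at least 1.16 ± 0.12, with an IMQ mean of 4.63.

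At the centromere Birc5 (survivin), a partner of Aurkb, read 3.52, 3.43, 3.02 and 3.37 in IMQ cells against 4.69, 4.62, 5.15 and 4.94 in mock cells. It was called lower (-1.51 ± 0.12, adjusted p = 3.90e-08), but both means, 3.34 and 4.85, lay below the level of sensory receptor genes, so the size cannot be read. Cenpf, a kinetochore protein, read 4.61, 4.90, 4.62 and 4.73 in IMQ cells against 5.24, 5.40, 5.04 and 5.56 in mock cells, a fall of at least 0.60 ± 0.12 (adjusted p = 0.000572). Both genes were lower on every IMQ array. The kinetochore motor Cenpe fell by 1.44 ± 0.08 and Cenpa, the histone H3 variant of centromeres, by 1.00 ± 0.09.

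All 6 genes of the spindle and of cytokinesis fell by more than 1. Kif23, a motor of the central spindle, read 4.53, 4.68, 4.83 and 4.94 in IMQ cells against 6.95, 6.94, 6.96 and 6.90 in mock cells, a fall of at least 2.20 ± 0.11 (adjusted p = 7.56e-11). Tpx2, which starts microtubules at the spindle, read 5.67, 5.76, 5.88 and 5.89 in IMQ cells against 7.15, 7.15, 7.10 and 7.01 in mock cells (-1.30 ± 0.07, adjusted p = 2.09e-10). The gap between groups was several times the spread within them for both. Kif11, the motor that pushes the poles apart, fell by at least 1.76 ± 0.09. Nusap1, which bundles spindle microtubules, fell by 1.59 ± 0.12, the cytokinesis motor Kif20a by 1.52 ± 0.14 and Prc1, which crosslinks the midzone, by 1.32 ± 0.08.

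The 2 chromatin genes often used as marks of proliferation differed in size. Top2a, the topoisomerase that untangles chromosomes, read 5.75, 5.62, 5.90 and 5.61 in IMQ cells against 7.16, 7.0, 7.27 and 7.14 in mock cells (-1.42 ± 0.08, adjusted p = 8.27e-10). Mki67, the Ki-67 antigen, read 7.99, 8.0, 8.26 and 8.05 in IMQ cells against 8.67, 8.64, 8.67 and 8.66 in mock cells (-0.58 ± 0.07, adjusted p = 3.97e-06), the smallest change of the 21 mitotic genes. Ccnd1, cyclin D1, which couples growth factors to G1, read 5.48, 5.53, 5.38 and 5.48 in IMQ cells against 6.24, 6.30, 6.33 and 6.02 in mock cells (-0.75 ± 0.08, adjusted p = 9.43e-07). In none of these genes did the groups overlap.

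**Figure D2:**
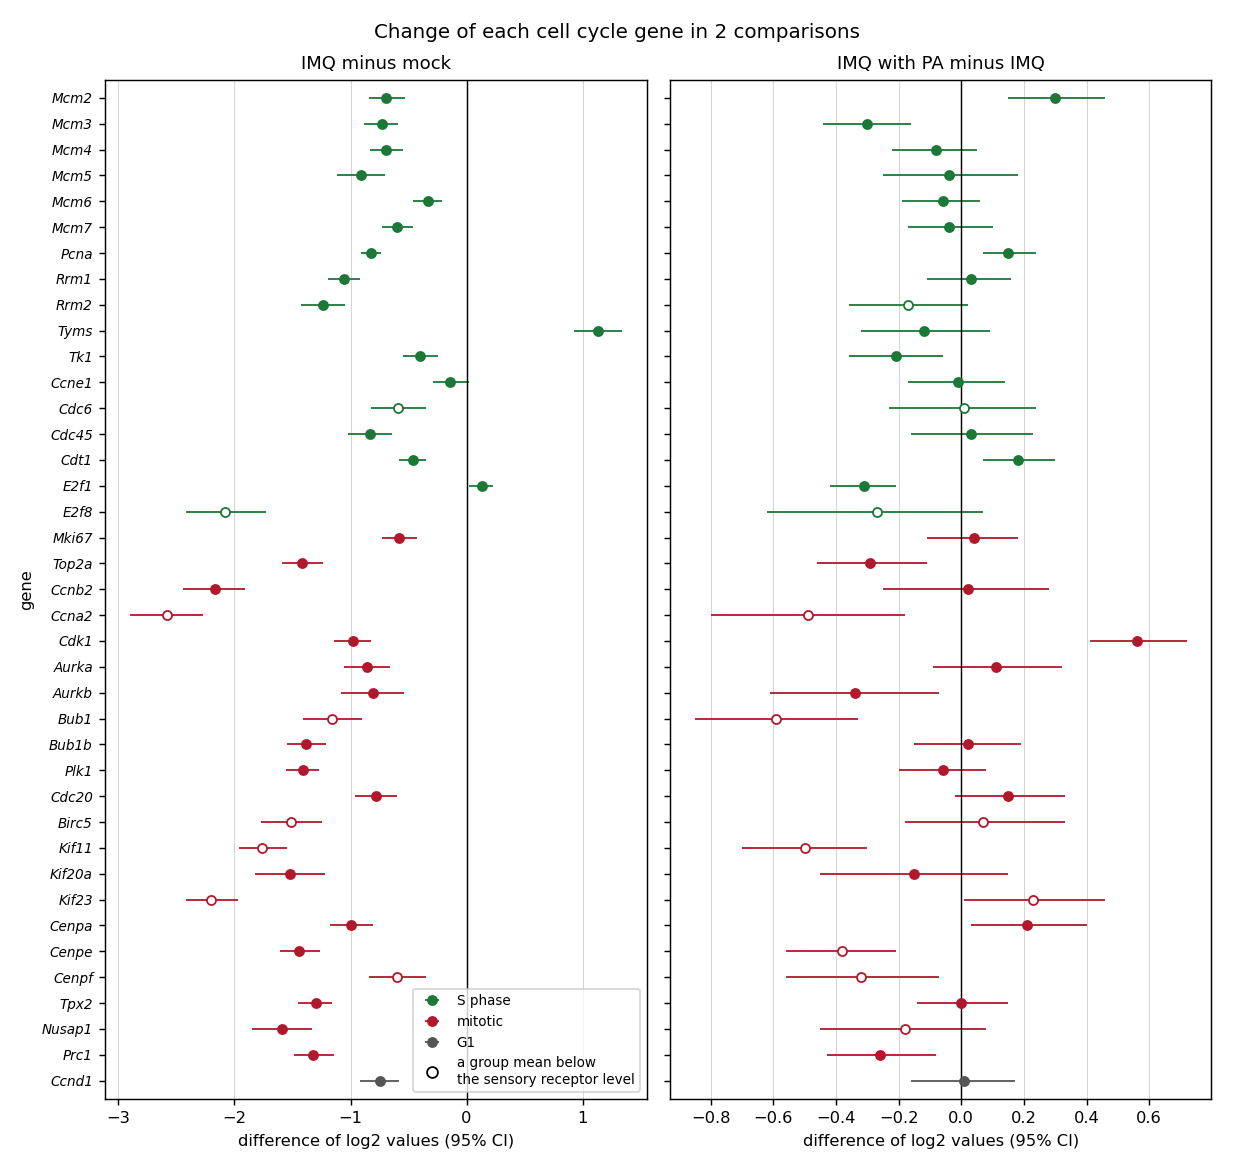
Points give the difference of group means in log2 units with its 95% confidence interval from limma for each gene, IMQ minus mock on the left and IMQ with PA minus IMQ on the right, whose horizontal scales differ. Open points have a group mean below 4.932. On the left all mitotic genes lie below 0 and Tyms stands at 1.13, and on the right most intervals span 0 while Cdk1 stands at 0.56.

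The classes differed in how far they fell. Of the 21 mitotic genes 19 fell further than the S phase median, and 1 of the 17 S phase genes, E2f8, fell further than the mitotic median. Leaving out Birc5, whose size cannot be read, a fall of at least 1 was found in 13 of 20 mitotic genes and in 3 of 17 S phase genes. The order was alike over genes with both means above the level of sensory receptor genes, with a median of -1.32 over 15 mitotic genes and -0.69 over 15 S phase genes. Summed up per array as the median over the genes of a class, relative to each gene's mock mean, the mitotic genes stood at -1.34 ± 0.06 in IMQ cells and 0.01 ± 0.08 in mock cells (SD, n = 4 each). The S phase genes stood at -0.66 ± 0.13 in IMQ cells and 0.00 ± 0.05 in mock cells. On all 8 arrays given IMQ the mitotic median lay below the S phase median, by 0.75 to 0.91 in cells given IMQ with PA and by 0.54 to 0.83 in IMQ cells, whereas on the 4 PA arrays it lay below by 0.00 to 0.13. The mock arrays lie near 0 by construction. A difference in size between probe sets also reflects how each probe set responds, which was not tested.

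**Figure D3:**
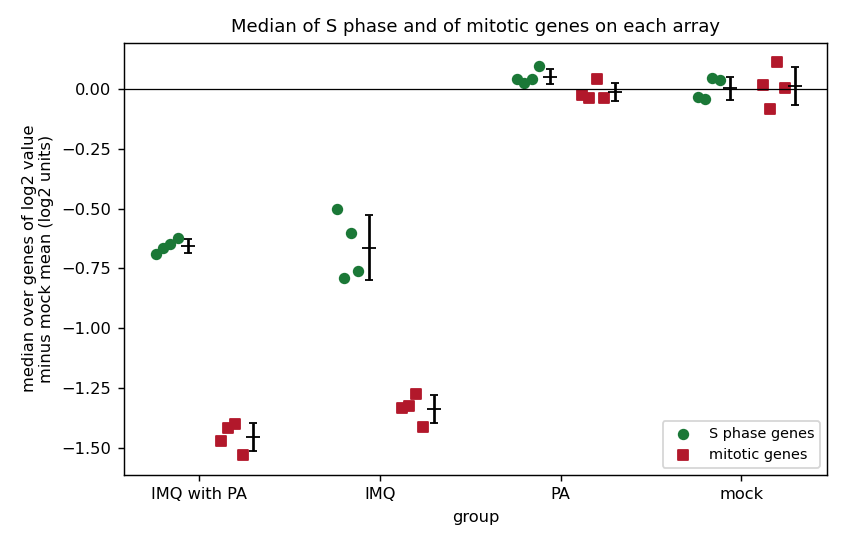
Each point is 1 array and gives the median over 17 S phase genes (circles) or 21 mitotic genes (squares) of the log2 value minus the gene's mock mean, with bars for the mean ± SD of the 4 arrays of a group. Both classes are down in the 2 groups given IMQ, the mitotic genes to -1.45 with PA and -1.34 without, and near 0 in the PA and mock groups.

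No gene of the set was called with PA alone. By limma 0 of the 39 genes were called in either direction between PA and mock cells, against 0.442% lower and 1.05% higher among all genes. At an unadjusted p under 0.05 there was 1, Cdt1, with 7.42, 7.43, 7.53 and 7.5 in PA cells against 7.27, 7.27, 7.36 and 7.34 in mock cells (0.15 ± 0.05, adjusted p = 0.197). Its groups did not overlap, and the share of all genes at that unadjusted threshold was not computed. The differences of the 39 ran from -0.09 to 0.15, and the count was 0 in all 25 alternatives. The intervals bound what could be missed. For Ccna2 the 95% confidence interval ran from -0.35 to 0.28, for Mki67 from -0.24 to 0.05, for Pcna from -0.05 to 0.12 and for Tyms from -0.08 to 0.33. In the mitotic class the array medians were -0.02 ± 0.04 in PA cells and 0.01 ± 0.08 in mock cells, and in the S phase class 0.05 ± 0.03 in PA cells and 0.00 ± 0.05 in mock cells.

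Adding PA to IMQ moved the set little as a whole, with calls in both directions. Of the 39 genes 9 were lower and 4 higher in cells given IMQ with PA than in IMQ cells, and 26 were not called. Among all genes 9.44% were lower and 11.6% higher. The share of the set called higher was thus near that among all genes, and the share called lower was above it. The median change was -0.04, against -0.018 over all genes. Of the S phase genes 3 were lower and 3 higher, and of the mitotic genes 6 were lower and 1 higher. Of these 13 calls, 7 (Mcm2, Mcm3, E2f1, Cdk1, Bub1, Kif11 and Cenpe) held in each of those 24 alternatives, and the other 6 (Ccna2, Prc1, Tk1, Top2a, Cdt1 and Pcna) were lost in at least 1. The alternative that also asks for a change of 0.5 left 2 lower and 1 higher.

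Cdk1 was the single mitotic gene called higher when PA was added. It read 6.36, 6.43, 6.39 and 6.46 in cells given IMQ with PA, against 5.86, 5.60, 5.90 and 6.02 in IMQ cells, a change of 0.56 ± 0.07 (adjusted p = 3.43e-05). All 4 arrays with PA lay above all 4 with IMQ alone and below every mock array. Its level was 75.0% of the mock level with PA added and 50.7% of it in IMQ cells. The interaction, which is the PA difference with IMQ minus that without IMQ, was 0.65 ± 0.11 for Cdk1 (adjusted p = 0.000508). Without the 5 arrays with Il6 signal it was 0.61 and missed the threshold (adjusted p = 0.0583).

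Of the cyclins that partner CDK1, Ccnb2 and Ccna2 were measured, and neither was called higher. Ccnb2 read 5.33, 5.96, 5.75 and 5.33 with PA added against 5.69, 5.69, 5.49 and 5.42 in IMQ cells (0.02 ± 0.12, 95% confidence interval -0.25 to 0.28), and the arrays were mixed. Ccna2 read 4.04, 4.40, 4.15 and 3.73 with PA added against 4.21, 4.57, 4.90 and 4.60 in IMQ cells. It was called lower (-0.49 ± 0.15, adjusted p = 0.0262) with both means dim and overlapping arrays, so no size is read. That call was lost with quantile normalization repeated, with the 2 groups fitted alone and without the 5 arrays with Il6 signal (adjusted p from 0.051 to 0.0763). It was also lost without any 1 of IMQ replicates 2, 3 or 4 or of IMQ with PA replicates 1 or 4 (adjusted p from 0.0555 to 0.0851).

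Mitotic genes that PA lowered further on top of IMQ were mostly near the dim range. Kif11 read 4.27, 4.02, 4.21 and 3.99 with PA added against 4.46, 4.64, 4.84 and 4.55 in IMQ cells (-0.50 ± 0.09, adjusted p = 0.00101), and Bub1 was called lower at -0.59 ± 0.12 (adjusted p = 0.00192). In both the groups did not overlap and both means were dim. Cenpe, with 4.71, 4.98, 4.91 and 4.66 with PA added against 5.18, 5.31, 5.23 and 5.07 in IMQ cells, fell by at least 0.38 ± 0.08 (adjusted p = 0.00274). Above that range lay Top2a, with 5.24, 5.44, 5.55 and 5.52 with PA added against 5.75, 5.62, 5.90 and 5.61 in IMQ cells (-0.29 ± 0.08, adjusted p = 0.021), and Prc1 (-0.26 ± 0.08, adjusted p = 0.0356). Both are small falls. Top2a lost its call with array medians set equal (adjusted p = 0.0734), with the 2 groups fitted alone (adjusted p = 0.06) and without IMQ replicates 1 or 3 or IMQ with PA replicate 1. Prc1 lost its call with array medians set equal (adjusted p = 0.0855), and without IMQ replicates 1, 2 or 4 or IMQ with PA replicates 2 or 3.

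For 14 mitotic genes no difference was called, and the intervals show how much of one is left room for. Mki67 read 8.16, 8.07, 8.03 and 8.19 with PA added against 7.99, 8.0, 8.26 and 8.05 in IMQ cells (95% confidence interval -0.11 to 0.18). The intervals were -0.14 to 0.15 for Tpx2, -0.20 to 0.08 for Plk1 and -0.15 to 0.19 for Bub1b. Aurkb read 5.85, 5.61, 5.77 and 5.80 with PA added against 6.12, 6.20, 6.07 and 5.98 in IMQ cells. These did not overlap, but the difference of -0.34 ± 0.13 was not called (adjusted p = 0.0765), and it was called in 7 of the alternatives, such as the 2 groups fitted alone (adjusted p = 0.0113) and that without the 5 arrays with Il6 signal (adjusted p = 0.00771). Cenpf (-0.32 ± 0.12, adjusted p = 0.0672) was likewise not called, with both means dim, and was called in 6 alternatives.

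Among the S phase genes the MCM subunits parted when PA was added. Mcm2 read 6.56, 6.59, 6.55 and 6.59 with PA added against 6.48, 6.17, 6.24 and 6.19 in IMQ cells (0.30 ± 0.07, adjusted p = 0.00661). Mcm3 read 6.21, 6.31, 6.27 and 6.12 with PA added against 6.52, 6.46, 6.66 and 6.47 in IMQ cells (-0.30 ± 0.07, adjusted p = 0.00386). Neither gene's groups overlapped, and both stayed below every mock array. The other 4 subunits were not called, with differences from -0.08 to -0.04. The interaction was called for Mcm3 (-0.33 ± 0.09, adjusted p = 0.0281) and not for Mcm2 (0.32 ± 0.10, adjusted p = 0.0519). That of Mcm3 was lost with array medians set equal (adjusted p = 0.0773), without the 5 arrays with Il6 signal (adjusted p = 0.258) and without any 1 of mock replicates 1 or 2, IMQ replicate 3 or IMQ with PA replicates 1 or 4 (adjusted p from 0.0504 to 0.0573). That of Mcm2 was called in 7 alternatives, among them those without mock replicate 2, PA replicate 4 or IMQ replicate 1.

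E2f1 fell when PA was added to IMQ, with 7.15, 7.07, 7.25 and 7.14 with PA added against 7.42, 7.41, 7.53 and 7.51 in IMQ cells (-0.31 ± 0.05, adjusted p = 0.000169). With PA and IMQ together every array lay below every array of the other 3 groups. Against mock cells the difference was -0.19 ± 0.05 (adjusted p = 0.00584), which missed the threshold without the 5 arrays with Il6 signal (-0.21, adjusted p = 0.119). The interaction was -0.35 ± 0.07 (adjusted p = 0.0023), and without those arrays it was -0.32 and not called (adjusted p = 0.15). Kif11 was the other gene with a called interaction (-0.44 ± 0.13, adjusted p = 0.0421), with both means of the groups given IMQ in the dim range. It was the least firm of the 4 and lost the call in 14 of 24 alternatives, among them those without any 1 mock array, PA replicates 1 or 3, IMQ replicates 2, 3 or 4 or IMQ with PA replicates 2 or 4.

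The remaining S phase calls were small. Pcna rose by 0.15 ± 0.04 with PA added (adjusted p = 0.0118), with 9.61, 9.64, 9.66 and 9.62 against 9.53, 9.45, 9.51 and 9.44 in IMQ cells, and missed the threshold when the 2 groups were fitted alone (adjusted p = 0.0612). Cdt1 rose by 0.18 ± 0.05 (adjusted p = 0.0235), with 7.12, 7.0, 7.10 and 6.91 with PA added against 6.87, 6.76, 6.89 and 6.89 in IMQ cells. Its call was lost in 6 alternatives, with quantile normalization repeated (0.11, adjusted p = 0.125), with the 2 groups fitted alone, without the 5 arrays with Il6 signal, and without IMQ replicate 2 or IMQ with PA replicates 1 or 3. Tk1 fell by 0.21 ± 0.07 (adjusted p = 0.0454) with overlapping arrays, and its call was lost in 18 of 24 alternatives (adjusted p from 0.0531 to 0.136). These include the ones without any 1 mock or IMQ array, PA replicates 2 or 3, or IMQ with PA replicates 2, 3 or 4. Neither Tyms (-0.12 ± 0.10, 95% confidence interval -0.32 to 0.09) nor Ccnd1 (0.01 ± 0.08, -0.16 to 0.17) was called.

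In all, the interaction was called lower for 3 and higher for 1 of the 39 genes, against 7.01% lower and 6.58% higher among all genes tested. At an unadjusted p under 0.05 there were 15. The share of all genes at that threshold was not computed, so the 15 cannot be set against these shares of adjusted calls. Without the 5 arrays with Il6 signal 0 of the 39 were called, where the share among all genes was 2.62% lower and 2.79% higher.

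**Figure D4:**
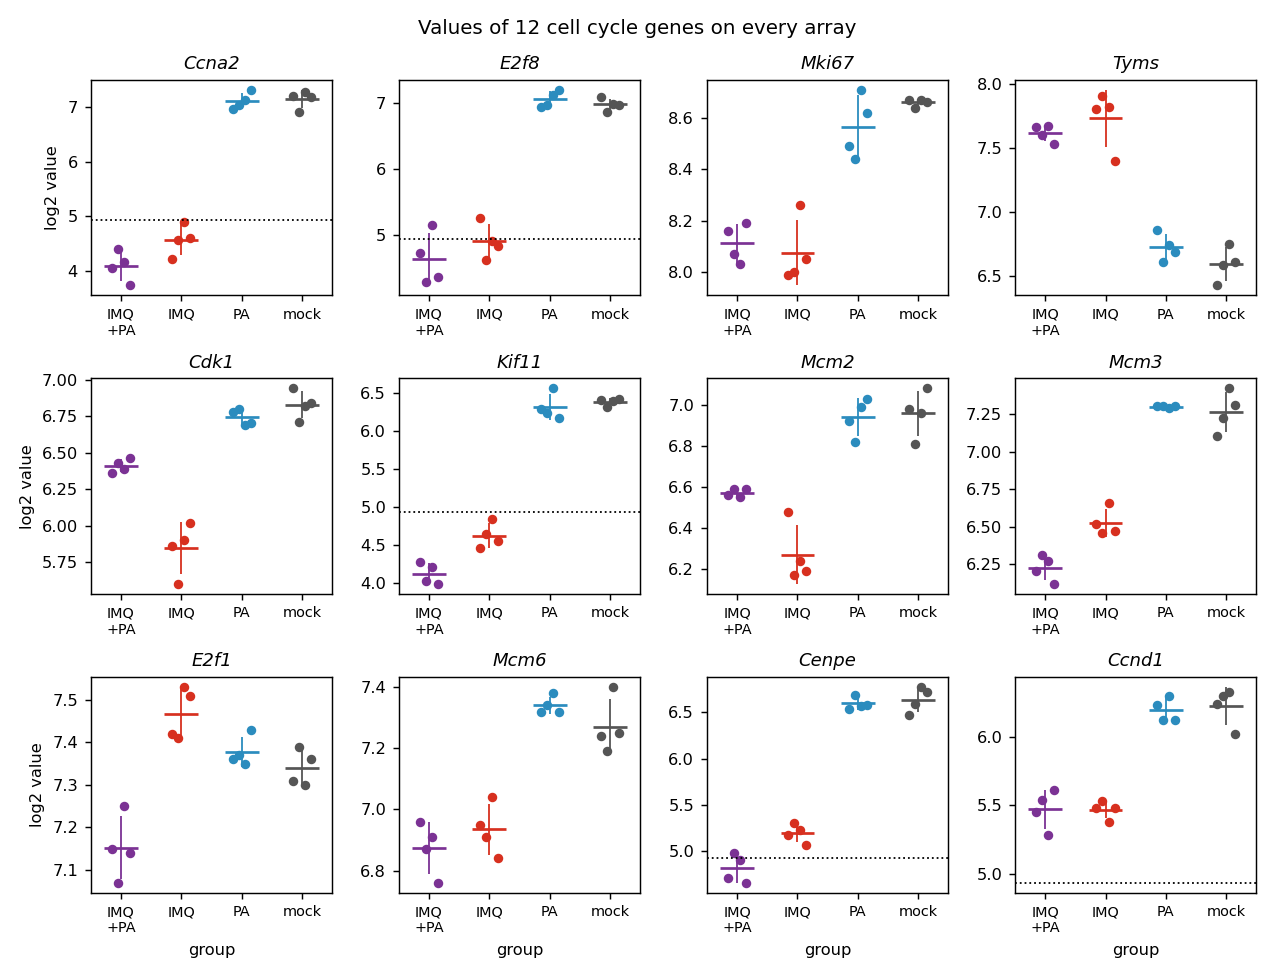
Points give the log2 value of 12 of the genes on each array, with the mean (horizontal bar) and SD (vertical bar) of 4 arrays per group, each panel on its own scale, and a dotted line at 4.932 where it falls in range. Cdk1 and Mcm2 sit between IMQ and mock in cells given IMQ with PA, E2f1 and Mcm3 sit below all other groups there, and Tyms is high in both groups given IMQ.

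IMQ lowered the set also where PA was present. Comparisons with the same arrays share their spread, so the values are given side by side. Against PA cells 38 genes were lower and 1 higher in cells given IMQ with PA (18.5% lower and 16.8% higher among all genes), and against mock cells 37 were lower and 1 higher (18.1% and 18.4%). Tyms was the higher gene in both. Ccna2 fell by at least 3.04 ± 0.15 against PA cells and by at least 3.07 ± 0.15 against mock cells. Rrm2, with 4.51, 4.85, 4.93 and 4.85 in cells given IMQ with PA against 6.37, 6.32, 6.24 and 6.44 in PA cells, fell by at least 1.56 ± 0.09 (adjusted p = 5.63e-10). Cdk1 fell by 0.33 ± 0.07 against PA cells and 0.42 ± 0.07 against mock cells, and its levels were 79.4% and 75.0% of theirs, the highest among the mitotic genes. Ccne1 was lower against PA cells (-0.23 ± 0.07, adjusted p = 0.0226), a call lost when these groups were fitted alone (adjusted p = 0.0517), without PA replicates 2 or 4, without IMQ with PA replicate 2 and without the 5 arrays with Il6 signal. Per array, the mitotic class stood at -1.45 ± 0.06 in cells given IMQ with PA and the S phase class at -0.66 ± 0.03.

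The other genes of these pathways, from lists drawn up for the same biology, moved with IMQ as follows, and their counts stand against the same 17.9% lower and 17% higher among all genes. Of 24 other replication genes measured, 19 were lower and 1 was higher, at a median of -0.55. Rfc5, a subunit of the clamp loader, fell by 1.33 ± 0.08, Chaf1a, which places histones behind the fork, by 0.93 ± 0.11, and Gmnn, the inhibitor of Cdt1, by 0.83 ± 0.08. Rpa2, which coats single-stranded DNA, rose by 0.47 ± 0.09, a call lost without the 5 arrays with Il6 signal (0.38, adjusted p = 0.0783). Of 32 other mitotic genes 29 were lower and 1 higher, at a median of -0.86. Anln, a scaffold of the contractile ring, fell by at least 1.93 ± 0.08, Nuf2 of the kinetochore by at least 1.92 ± 0.14 and Ube2c, the ubiquitin enzyme of the anaphase-promoting complex, by at least 1.71 ± 0.18. Pttg1, securin, rose by 0.17 ± 0.06 (adjusted p = 0.0444). That call was lost in 14 of 24 alternatives, among them those without the 5 arrays (adjusted p = 0.329) and without any 1 of mock replicates 1, 2 or 4, PA replicates 3 or 4, the 4 IMQ arrays or IMQ with PA replicates 1 or 4.

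Among 7 CDK inhibitors 3 were higher and 1 lower with IMQ, against 17% higher and 17.9% lower among all genes. Cdkn1a (p21) read 11.46, 11.42, 11.49 and 11.45 in IMQ cells against 10.28, 10.30, 10.35 and 10.29 in mock cells (1.15 ± 0.04, adjusted p = 7.43e-13). Its groups lay far apart and each varied by an SD of 0.03. Cdkn2b (p15) rose by 0.41 ± 0.08, which was not called without the 5 arrays with Il6 signal (0.30, adjusted p = 0.0804), and Cdkn1b (p27) by 0.37 ± 0.05, while Cdkn2c (p18) fell by at least 1.36 ± 0.12. With PA added to IMQ, Cdkn2b rose further, by 0.54 ± 0.08 (adjusted p = 6.47e-05), and Cdkn1a by 0.22 ± 0.04 (adjusted p = 0.000327). PA alone also raised Cdkn1a over mock cells, by 0.18 ± 0.04 (limma adjusted p = 0.0189). The interaction of Cdkn1a was 0.04 ± 0.05 and was not called (limma adjusted p = 0.721). How its call with PA alone held in the alternatives is not given here.

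Of 18 pocket protein, E2F and DREAM genes 9 were lower and 5 higher with IMQ, shares of 50.0% and 27.8%. E2f2, an activating E2F, fell by 1.55 ± 0.09, Foxm1, which drives mitotic genes, by at least 0.92 ± 0.10, and Tfdp2, a DNA-binding partner of E2F, by 0.53 ± 0.07. E2f5, a repressive E2F, rose by 0.96 ± 0.07 and E2f3 by 0.39 ± 0.09. Mybl2, which encodes B-MYB, was called higher with IMQ, by 0.19 ± 0.07 (limma adjusted p = 0.0353), while Foxm1 fell. That call of Mybl2 lay near the threshold, and how it held in the alternatives is not given here. With PA added, 4 were lower and 3 higher, against 9.44% lower and 11.6% higher among all genes, with Mybl2 (B-MYB) at -0.28 ± 0.07, Rb1 at -0.27 ± 0.05 and E2f2 at -0.27 ± 0.09 lower, and Lin54, which binds CHR letters within MuvB (0.51 ± 0.07), and E2f5 (0.23 ± 0.07) higher. The call of E2f2 was lost in 17 of 24 alternatives (adjusted p up to 0.159), among them those without any 1 of mock replicates 1 or 3, the 4 PA arrays, IMQ replicates 2, 3 or 4 or IMQ with PA replicates 1, 2 or 3. That of E2f5 was lost in 7 (adjusted p up to 0.0985), among them those without IMQ replicates 2 or 4 or IMQ with PA replicates 2 or 4. Without the 5 arrays neither was called (adjusted p = 0.0972 for E2f2 and 0.0623 for E2f5). That of Rb1 was lost when all probe sets of the gene were averaged (adjusted p = 0.747).

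In the list of G1 cyclins, CDKs and CDC25 phosphatases, 8 of 15 were lower and 3 higher with IMQ, shares of 53.3% and 20.0%, the second near the share among all genes. Ccnd2, cyclin D2, read 9.54, 9.47, 9.66 and 9.59 in IMQ cells against 6.34, 6.34, 6.57 and 6.17 in mock cells, a rise of 3.21 ± 0.07 (adjusted p = 3.23e-14), whereas Ccnd1 fell. Ccnd3, cyclin D3, read 8.30, 8.08, 8.30 and 8.11 in IMQ cells against 7.70, 7.69, 7.82 and 7.74 in mock cells (0.46 ± 0.07). The 3 D-type cyclins thus moved in different directions. The growth regulator Myc fell by 1.83 ± 0.06, the CDK1 inhibitory kinase Wee1 by 1.73 ± 0.11 and Cdc25b, a phosphatase that activates CDKs, by 1.66 ± 0.11.

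With PA added to IMQ, 4 genes of that list were higher and 2 lower, shares of 26.7% and 13.3% against 11.6% and 9.44% among all genes. Myc read 6.67, 6.76, 6.81 and 6.75 with PA added against 5.91, 5.64, 5.98 and 5.82 in IMQ cells (0.91 ± 0.06, adjusted p = 3.29e-08). Cks2 and Cks1b, small subunits that bind CDKs, rose by 0.65 ± 0.08 and 0.30 ± 0.09. Ccnd3 fell to 7.52, 7.41, 7.29 and 7.52 with PA added, against 8.30, 8.08, 8.30 and 8.11 in IMQ cells (-0.76 ± 0.07, adjusted p = 3.38e-07), and Cdk2 fell by 0.22 ± 0.06. The call of Cks1b was lost in 9 of 24 alternatives (adjusted p up to 0.136), among them those without the 5 arrays, IMQ replicates 1 or 4 or IMQ with PA replicates 1, 3 or 4. That of Cdk2 was lost in 5 (adjusted p up to 0.0791), among them those without IMQ replicate 4 or IMQ with PA replicates 1, 2 or 4. For Myc and Ccnd3 the groups did not overlap.

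Among the 24 other replication genes 4 were higher and 2 lower with PA added, shares of 16.7% and 8.33% that lie near those among all genes, with Fen1 (0.45 ± 0.10), Chaf1b (0.41 ± 0.05) and Rfc5 (0.29 ± 0.08) higher and Prim2 (-0.21 ± 0.05) and Pole (-0.51 ± 0.07, both means dim) lower. Of these, Fen1 was not called when all its probe sets were averaged (adjusted p = 0.15), Prim2 with array medians set equal (adjusted p = 0.0608) and Rfc5 without IMQ replicates 2 or 4 or IMQ with PA replicate 2 (adjusted p up to 0.0621). Among the 32 other mitotic genes 2 were higher and 7 lower, shares of 6.25% and 21.9%, with the kinase Nek6 (-1.04 ± 0.05), Ect2, which starts cytokinesis (-0.45 ± 0.08), and the checkpoint gene Mad2l1 (-0.45 ± 0.08) lower and Pttg1 (0.23 ± 0.06) and Hmmr (0.27 ± 0.08, both means dim) higher. The calls of Pttg1 and Hmmr were lost without IMQ with PA replicate 2, that of Hmmr also without IMQ replicate 1 and that of Pttg1 with quantile normalization repeated (adjusted p up to 0.0955 for Pttg1 and 0.0813 for Hmmr).

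**Figure D5:**
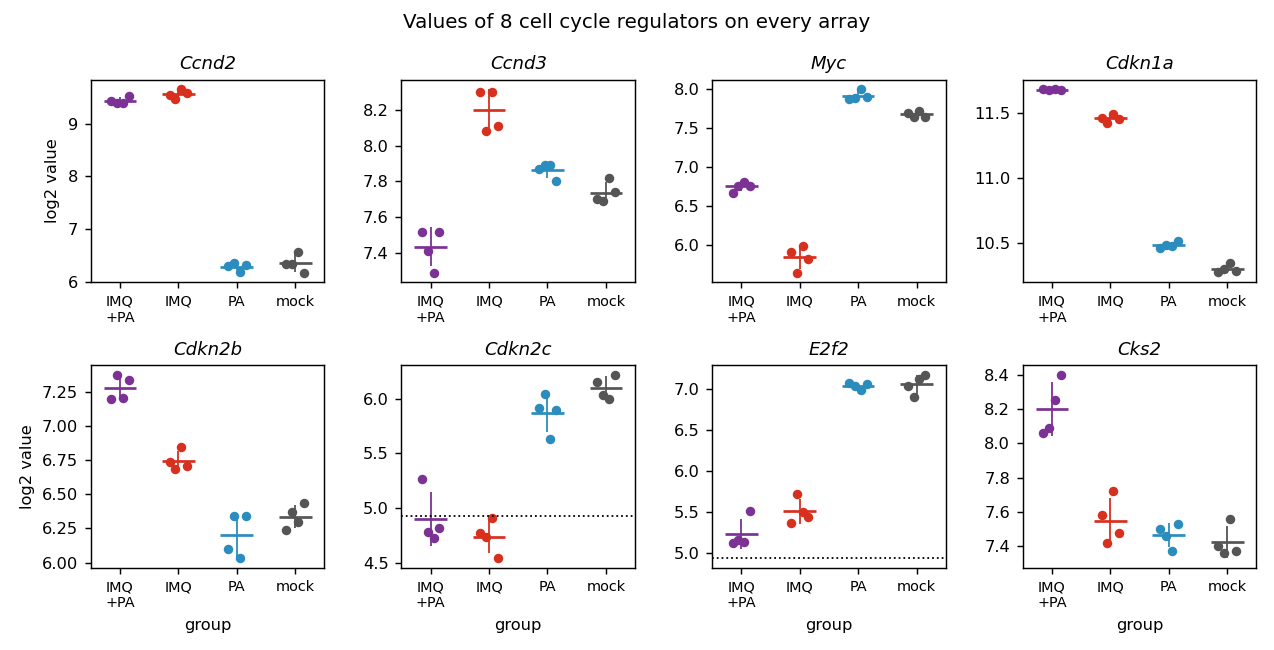
Points give the log2 value of 8 regulators on each array, with the mean (horizontal bar) and SD (vertical bar) of 4 arrays per group, each panel on its own scale, and a dotted line at 4.932 where it falls in range. Ccnd2 and Cdkn1a are high and Myc and E2f2 low in both groups given IMQ, and Ccnd3 is lowest and Cdkn2b highest in cells given IMQ with PA.

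Markers of cell types moved beside these genes, and their part in the results was not tested. Their counts stand against 17.9% lower and 17% higher among all genes with IMQ, and 9.44% lower and 11.6% higher with PA added to it. Of 11 macrophage markers 7 were lower and 4 higher with IMQ. The sum of their log2 values ran from 107.6 to 108.5 in IMQ cells against 112.4 to 113.1 in mock cells. In such a sum, used for each list here, rises and falls offset each other, and it is not a total amount of RNA. Of 13 dendritic cell markers 6 were lower and 6 higher, at sums of 108.1 to 108.7 in IMQ cells and 109.0 to 109.8 in mock cells. Of 12 markers of myeloid progenitors, a dividing population, 0 were lower and 1, Gfi1, was higher, both shares below those among all genes. Their sums were 63.1 to 63.7 in IMQ cells and 61.8 to 62.2 in mock cells, and 2 of them were dim in all groups. Mpo and Ctsg were dim in both IMQ and mock cells, and Cd34, Elane, Gfi1 and Myb in 1 of these groups. Gfi1 had a mock mean of 4.91. Dim readings leave little room to see a fall, so these counts do not show whether progenitors were kept. With PA added to IMQ 7 macrophage markers were lower and 3 higher, with sums of 106.5 to 107.0 with PA added against 107.6 to 108.5 in IMQ cells. Among the progenitor markers 1 was lower and 3 were higher, with sums of 64.3 to 66.2 with PA added against 63.1 to 63.7 in IMQ cells.

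Of 7 genes for receptors of myeloid growth factors, of which GM-CSF was in the culture medium, 4 were lower and 2 higher with IMQ. Among all genes 17.9% were lower and 17% higher. The GM-CSF receptor subunit Csf2ra fell by 0.37 ± 0.04, Csf2rb, whose probes may also read its close copy Csf2rb2, by 0.21 ± 0.05, and the M-CSF receptor Csf1r by 0.18 ± 0.04. Without the 5 arrays with Il6 signal neither Csf2rb (-0.25, adjusted p = 0.0584) nor Csf1r (-0.17, adjusted p = 0.132) was called. Flt3 rose by 0.53 ± 0.05 and the G-CSF receptor Csf3r by 0.29 ± 0.05. With PA added to IMQ 3 were lower and 0 higher, against 9.44% lower and 11.6% higher among all genes. Csf3r read 6.83, 6.84, 6.88 and 6.94 with PA added against 8.74, 8.69, 8.80 and 8.65 in IMQ cells (-1.85 ± 0.05, limma adjusted p = 4.09e-13). Csf1r changed by -0.46 ± 0.04 and Flt3 by -0.34 ± 0.05.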

How the data were processed

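RNA (200 ng per sample) was labelled with the WT PLUS kit for single-colour Affymetrix arrays, per the labels' protocols. The authors deposited log2 values, made with RMA and affy per the submitters' processing notes. RMA by its design corrects background, sets the arrays' distributions alike and summarises probe sets. A genome build is not given in the sources used here. Of 41345 probe sets on the 16 arrays, 23521 carried 1 symbol in the platform annotation, 1814 several and 16010 none listed. The single-symbol sets gave 22180 genes, and 0 symbols needed an update against RefSeq. Arrays of a group correlated at 0.9942 to 0.9962, and 0 pairs were identical. Arrays have no depth in reads, and their number sets the precision.

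A model of 4 group means over the 16 arrays was fitted in R 4.3.3 using limma 3.58.1 (eBayes, 12 residual and 2.96 prior degrees of freedom). Calls are two-sided, with Benjamini-Hochberg adjustment across 22180 genes and a threshold of 0.05. The steps were tested on simulated data. Alternatives covered normalization, dim genes, moderation, the arrays fitted, probe sets, a size of 0.5, a replicate block and single arrays left out, and 1, without the 5 arrays with Il6 signal, was chosen after seeing the data. Arrays with the same replicate number did not deviate together (median r = 0.006 over 24 pairs), so the numbers were not taken to pair them.

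All measured members were named. Values on every array were given for the members with the largest and smallest IMQ change of each role group, Ccnd1, Mki67, those called against their class and, added after their values were seen, the members called with PA on IMQ and others beside them. Of the other lists, up to 3 called genes in the main direction and 2 in the other were named by size. The change of Mybl2 with IMQ was added for its role, and that of Cdkn1a with PA alone to stand beside its rise on IMQ. The members and lists were chosen with earlier results of these data known.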

Additional observations from a re-analysis of the deposited data

Results flagged for a closer look

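In Mcm5 the IMQ array of replicate 4, at 5.50, stood below the other IMQ arrays, which read 5.69 to 5.72. This gap passed Dixon's 95% criterion in 1 of 156 groups of 4 arrays tested, where chance alone passes about 1 in 20.

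The effect of PA differed with and without IMQ, by the interaction term of limma, for 4 of the 39 cell cycle genes. Among all genes 7.01% had a lower and 6.58% a higher interaction. These 4 were Cdk1 (0.65), Mcm3 (-0.33), E2f1 (-0.35) and Kif11 (-0.44), and none of them was called without the 5 arrays with Il6 signal (mock replicates 1 to 3 and PA replicates 3 and 4). Both means of Kif11 in the groups given IMQ lay in the dim range, so no size is read for its interaction. Among 41 other genes named the interaction was called for 17. These include genes named for their size in IMQ with PA against IMQ, which is part of the interaction, so their count is no result about the lists. The regulators were Cdkn2b (0.67), Mybl2 (-0.39), Rb1 (-0.36), Lin54 (0.52), Myc (0.67), Ccnd3 (-0.89), Cks2 (0.61) and Cdk2 (-0.35). The replication genes were Rfc5 (0.39), Chaf1b (0.44), Pole (-0.46, with both means of the groups given IMQ in the dim range) and Prim2 (-0.30). The mitotic genes were Nek6 (-1.02), Ect2 (-0.61) and Mad2l1 (-0.61), and the receptors were Csf1r (-0.49) and Csf3r (-1.64). Without the 5 arrays 8 of the 17 were called, namely Ccnd3, Cdkn2b, Chaf1b, Csf1r, Csf3r, Ect2, Myc and Nek6, and the other 9 were not (adjusted p from 0.0796 for Cdk2 and Rb1 to 0.293 for Pole). Rfc5 was called in the fewest settings and lost its call in 14 of 24 alternatives. With all probe sets of a gene averaged, the interaction of Rb1 was -0.02 (limma adjusted p = 0.956), and the call of Pole was lost too.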

How the results depend on the processing

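The results for the 39 genes were recomputed under 25 alternatives, 24 planned and 1 added after the data were seen, and those for the 41 other genes named under 24, without the one on size. None turned its direction where it was called. Of the other genes' calls, 22 of 27 with IMQ, 15 of 25 with PA added and 8 of 17 interactions held in every one. These counts leave out the calls of Mybl2 with IMQ and of Cdkn1a with PA alone. Counts over the marker and pathway lists were not recomputed. The 36 falls with IMQ were 33 when a change of 0.5 was also required, 35 when dim genes, Birc5 among them, were left out, and 36 otherwise. The count higher with IMQ was 2 in place of 1, by E2f1, with quantile normalization repeated and with dim genes left out, and 1 to 2 without single arrays. With PA added to IMQ, requiring a change of 0.5 left 2 lower and 1 higher, fitting these 2 groups alone left 2 higher, and single arrays left out gave 6 to 10 lower and 3 to 4 higher. The interaction was the least stable. In place of 3 lower there was 1 with array medians set equal, 5 with dim genes left out, 5 with the replicate block, 0 with a change of 0.5 required, 0 without the 5 arrays with Il6 signal and 1 to 5 without single arrays. In place of 1 higher there were 2 with quantile normalization repeated, with dim genes left out, with a variance trend and with the replicate block, 0 without the 5 arrays and 1 to 2 without single arrays. The 5 were mock replicates 1 to 3 and PA replicates 3 and 4. With a replicate block the calls of Prc1 and Tk1 with PA on IMQ were also lost, and the numbers are not known to pair the arrays. Apart from what each alternative leaves out, the cause of these shifts was not tested. The class medians with IMQ moved only within -0.72 to -0.64 for S phase and -1.41 to -1.34 for mitotic genes. With 4 arrays per group and standard errors of 0.04 to 0.16, what could be called depended on the gene, since 0.15 was called for Pcna and -0.34 for Aurkb was not, and dim readings give no size.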
